A study of Rattus norvegicus with 20 samples.

Results

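Sarcomeric myosin heavy chains are the motor proteins of the muscle thick filament, and they were followed here through every probe set of the array platform whose only gene symbol was Myh1, Myh2, Myh3, Myh4, Myh6 or Myh7. The rule found all 6 genes, of 4737 named by a probe set with 1 symbol, in 13 of the 8799 probe sets: 1 probe set each for Myh1, Myh2 and Myh4, 5 for Myh3, 3 for Myh6 and 2 for Myh7. Another 9 probe sets named several Myh genes or another Myh gene and were no members. Membership used the platform's gene names and no measured value, but the 6 genes were chosen with earlier results of these data known.

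The arrays measured poly(A) RNA of rear-leg skeletal muscle from rats in 4 groups of 5 arrays each: diabetic rats given vanadyl sulfate, untreated diabetic rats, normal rats given vanadyl sulfate, and untreated normal rats. Vanadyl sulfate is a vanadium salt with insulin-like actions. The sources used here do not give the way diabetes was produced, the strain, age or sex of the rats, the leg muscle sampled, or how much vanadyl sulfate was given and for how long. The labels number the replicates 1 to 5 without saying whether each is another animal, and every p-value below therefore covers the spread between these samples alone.

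The myosin heavy chain sets how fast a muscle fibre shortens, and the adult fibre types are named after the isoform they hold. Myh7 encodes the slow (type I, also beta-cardiac) chain, Myh2 the fast oxidative IIa chain, Myh1 the IIx chain and Myh4 the fastest, glycolytic IIb chain of rodent muscle. Myh3 encodes the embryonic chain, which is made in developing muscle and again in fibres that regenerate after damage, and Myh6 encodes the alpha chain of heart muscle.

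In the RefSeq annotation of the rat assembly GRCr8, Myh3, Myh2, Myh1 and Myh4 follow each other in this order on chromosome 10, ahead of Myh8 and Myh13, with no other protein-coding gene between the 6. Myh6 and Myh7 are neighbours on chromosome 15. The sequences below are the 250 bases just before the annotated start of the 4 genes of the chromosome 10 cluster, on the plus strand, and are shown because the embryonic gene, 2 of whose probe sets were called in diabetic muscle, and its adult fast neighbours, of which none was, lie side by side. They lie at chr10:52268935-52269184 (Myh3), chr10:52355489-52355738 (Myh2), chr10:52384662-52384911 (Myh1) and chr10:52421898-52422147 (Myh4), and come from RefSeq. Capitals mark the TATA box (TATAAAA) and a 20-base run that Myh2, Myh1 and Myh4 share.
Myh3: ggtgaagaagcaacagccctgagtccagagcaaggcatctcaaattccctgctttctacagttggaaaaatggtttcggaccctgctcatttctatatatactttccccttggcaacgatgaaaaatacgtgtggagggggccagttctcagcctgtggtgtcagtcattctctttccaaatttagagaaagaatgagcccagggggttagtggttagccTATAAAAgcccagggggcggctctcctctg
Myh2: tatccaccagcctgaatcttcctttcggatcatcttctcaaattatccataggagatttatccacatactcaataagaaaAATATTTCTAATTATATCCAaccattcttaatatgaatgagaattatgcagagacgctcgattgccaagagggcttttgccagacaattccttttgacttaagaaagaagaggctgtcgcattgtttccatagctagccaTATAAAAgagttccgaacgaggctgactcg
Myh1: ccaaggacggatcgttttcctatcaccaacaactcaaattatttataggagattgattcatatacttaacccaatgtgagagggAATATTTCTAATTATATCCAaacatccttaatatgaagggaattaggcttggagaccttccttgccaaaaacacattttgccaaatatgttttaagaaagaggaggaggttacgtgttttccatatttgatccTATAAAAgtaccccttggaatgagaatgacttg
Myh4: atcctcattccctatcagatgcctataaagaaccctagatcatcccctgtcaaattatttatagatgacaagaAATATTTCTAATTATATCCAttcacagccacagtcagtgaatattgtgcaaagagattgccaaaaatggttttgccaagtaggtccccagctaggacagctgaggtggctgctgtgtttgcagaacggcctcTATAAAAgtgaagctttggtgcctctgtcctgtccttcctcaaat

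The shared run, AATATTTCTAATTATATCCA, begins 170 bases before the start of Myh2, 166 before that of Myh1 and 177 before that of Myh4. It was not found in the Myh3 window on either strand. Over both strands of all 33469 RefSeq promoter windows it occurred in 5 (0.0149%), under the symbols Myh1, Myh2, Myh4 and LOC102555216. The TATA box was found once in each of the 4 windows and, over both strands, in 5.38% of all windows. The E box, CANNTG, the general site of myogenic regulatory factors, had 1 match in Myh3, 2 in Myh4 and 0 in Myh2 and Myh1, and 65.5% of all windows held it. A MEF2 site was matched once in Myh1 and once in Myh4 (2.96% of all windows), and a CArG box once in Myh4 (1.5%). These matches, searched on both strands, describe letters in a window and not factor binding.

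The deposited values are MAS5 signals, a brightness in arbitrary units per probe set and array. On the 20 arrays the 2% trimmed mean signal was 2503.4 to 2506.46 units and the median 377.3 to 647.8 units. Differences were tested with limma on log2(signal + 16) over the 6027 probe sets that exceeded the same array's 40th percentile on at least 5 arrays, with Benjamini-Hochberg adjustment over these and a threshold of 0.05. Of the 13 members, 11 were tested. The Myh3 probe sets K03467_s_at and L00370cds_s_at lay above that percentile on 4 and 2 arrays and were not tested. Signals of different probe sets were not set against each other, because each has its own probes. The log2 ratio of 3' over 5' signal for Gapdh, a measure of RNA integrity, was 3.94 in treated diabetic replicate 1, 2.90 in normal replicate 1 and 2.91 in normal replicate 3, and at most 1.31 on the other 17 arrays. The same ratio for beta-actin ran from 0.48 to 3.01 over the 20 arrays. The 5 skeletal muscle markers on the array (of 7 listed) lay above the 40th percentile on all 20 arrays.

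Untreated diabetic against untreated normal muscle asks what accompanied diabetes. The embryonic chain Myh3 was higher in diabetic muscle by 2 of its 3 tested probe sets, 5.92-fold by X04267_at and 17.6-fold by M12098_s_at. No probe set of the adult fast, slow or alpha chains passed the test.

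X04267_at had 63136.8, 28876.2, 74175.2, 26452.3 and 5022.0 units in diabetic replicates 1 to 5, against 4286.5, 2695.7, 7915.3, 8481.4 and 3130.4 in normal replicates 1 to 5. Diabetic replicates 1 to 4 lay above every normal array, and diabetic replicate 5 lay inside the normal range. The mean log2 signal was 14.79 ± 1.54 in diabetic and 12.22 ± 0.75 in normal muscle (SD, n = 5 each), a log2 change of 2.57 ± 0.52 (SE; limma adjusted p = 0.0155).

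M12098_s_at had 20489.0, 6508.0, 15988.5, 6128.8 and 544.3 units in diabetic muscle, against 325.2, 90.9, 458.2, 554.0 and 430.5 in normal muscle, in the same order of replicates. Again diabetic replicates 1 to 4 lay above all normal arrays and replicate 5 among them. Its mean log2 signal was 12.54 ± 2.05 in diabetic and 8.40 ± 0.97 in normal muscle (SD, n = 5 each), a log2 change of 4.14 ± 0.73 (SE; limma adjusted p = 0.00557). The normal signals were dim, and the fold depends on the constant added before the logarithm: the log2 change was 3.94 with 64 added and 4.21 with 1 added.

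The untested K03467_s_at showed the same arrays apart. It had 2258.9, 809.4, 2557.8, 727.7 and 46.4 units in diabetic replicates 1 to 5 and 37.6 to 160.3 units in normal muscle, with a median of 137.6. Without the filter on dim probe sets its log2 change was 2.69 ± 0.69 (SE; limma adjusted p = 0.0702), which missed the threshold.

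The other pair of Myh3 probe sets had no such values. K03468_s_at had 480.4, 641.0, 669.6, 506.6 and 309.3 units in diabetic and 194.3, 360.6, 325.6, 591.6 and 700.0 units in normal muscle, and its log2 change was 0.34 ± 0.37 (SE; 95% interval -0.43 to 1.11). L00370cds_s_at ran from 109.6 to 207.5 units in diabetic muscle, with a median of 117.6, and from 105.9 to 589.2 units in normal muscle, with a median of 244.6. The 5 probe sets of this 1 gene therefore fell into 3 that were high in diabetic replicates 1 to 4 and 2 that were not. The suffix _s_at marks a probe set whose probes match more than 1 transcript, and only X04267_at lacks it.

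**Figure D1:**
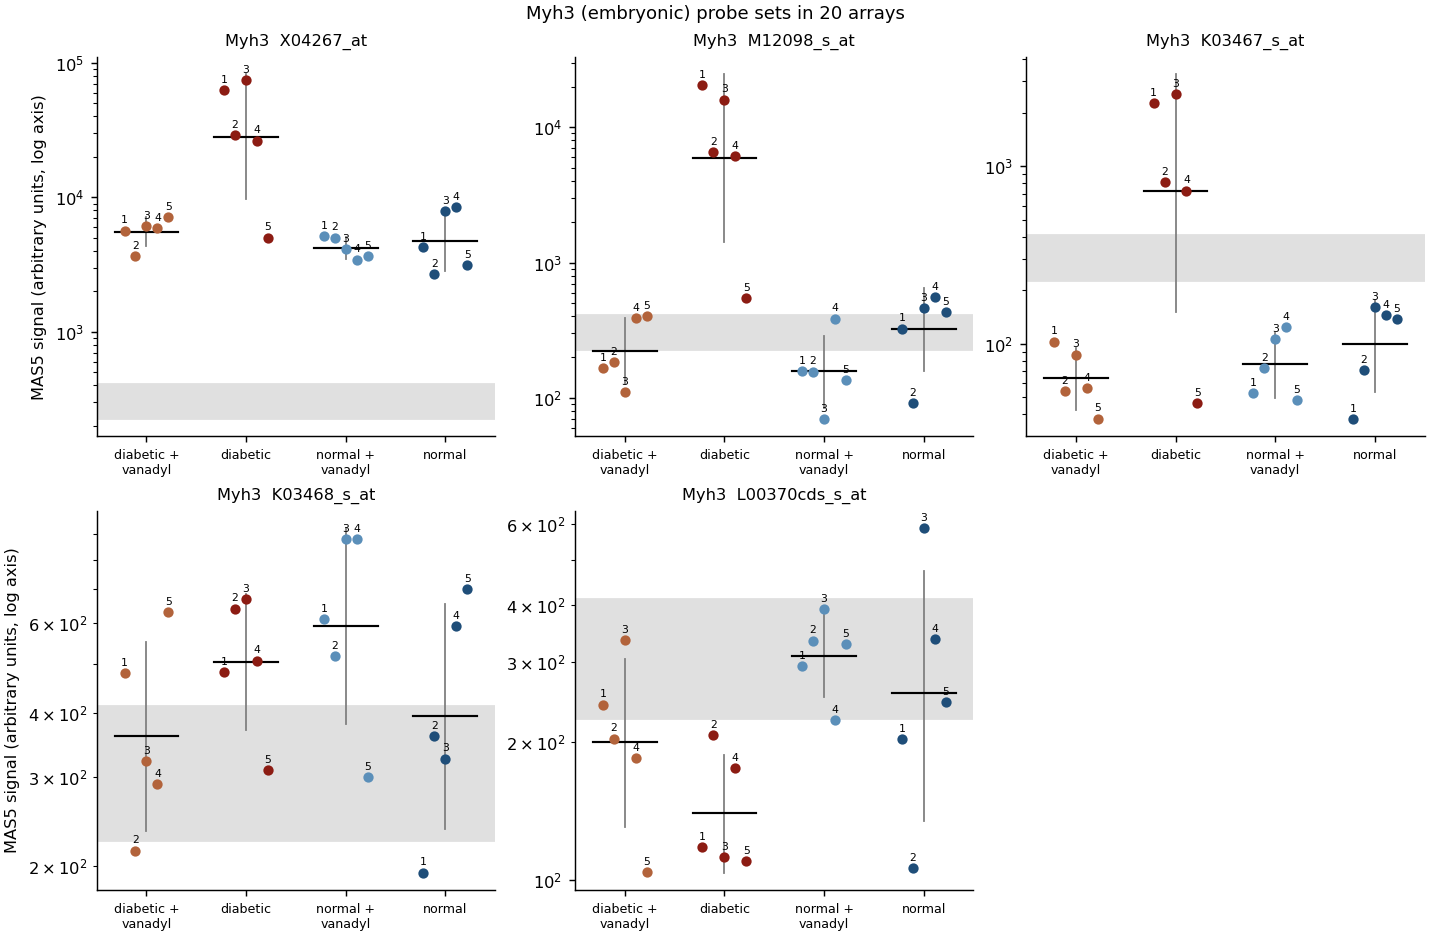
MAS5 signal (log axis, arbitrary units) of the 5 Myh3 probe sets in each array, by group, with the replicate number beside each point; black lines are means and grey vertical bars ± SD, both taken on the log2 scale. The grey band spans the 40th percentiles of the 20 arrays (224.7 to 411.92 units). In the 3 upper panels diabetic replicates 1 to 4 stand above all other arrays, and in the 2 lower panels they do not.

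Over the 11 tested members, 2 were called higher and 0 lower in diabetic muscle, where 1.26% of all tested probe sets were called higher and 1.83% in either direction. Both called members are probe sets of the 1 gene Myh3, with an r of 0.94 over the 20 arrays, so they are not independent readings. The other 9 had log2 changes between -0.53 and 0.47 (adjusted p from 0.467 to 0.937). Limma's unadjusted p was under 0.05 for 2 members, where 16.7% of the tested probe sets were under it. The median change was 0.18 over the members and -0.06 over all tested probe sets. No member had values free of overlap between the 2 groups, as 5.09% of all tested probe sets had. At least 4 of the 5 diabetic arrays lay above all 15 other arrays for X04267_at, M12098_s_at and K03467_s_at, and for 1.43% of the tested probe sets. That description was chosen after the values were seen.

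The diabetic arrays with the highest Myh3 also had the highest signals of leukocyte markers. The summed signal of the 9 leukocyte markers on the array (of 13 listed) was 87308.2, 27024.5, 83805.1, 28687.7 and 18047.9 units in diabetic replicates 1 to 5, against 8234.6 to 14272.4 units in normal muscle. By limma 6 of the 9 rose in diabetic muscle and 0 fell, among them lysozyme, Lyz2 (log2 change 2.58), and the inhibitory Fc receptor Fcgr2b (1.66). The brightest markers, Lyz2 (at most 34587.6 units on the 20 arrays) and Cd74 (at most 32786.3), weigh most in the sum, and Cd74 was not among the 6. None of the 9 lay under the 40th percentile on all 5 diabetic arrays. Of 5 tested adipocyte markers 3 rose (summed signal of the 6 on the array 32149.0 to 52728.8 units in diabetic and 14986.8 to 26414.7 units in normal muscle), and of 4 tested endothelial markers 1 did, Esm1. The part of these cell types in the Myh3 result was not tested. In pieces of tissue such as these, fewer cells of a type and less RNA per cell cannot be told apart.

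Diabetic replicates 1 and 3 carried much of the test. Without both, the log2 change was 1.72 (limma adjusted p = 0.295) for X04267_at and 3.06 (adjusted p = 0.152) for M12098_s_at. Without diabetic replicate 5 the changes were 3.19 and 4.99. M12098_s_at passed with any 1 of the 20 arrays left out, whereas X04267_at missed the threshold without diabetic replicate 1 or 3 or normal replicate 5 (adjusted p from 0.0554 to 0.0624). With the Gapdh and beta-actin 3'/5' ratios as covariates, the changes were 2.62 and 3.80 and both missed the threshold (adjusted p = 0.0612 and 0.0543). Diabetic replicates 1 and 3 had the highest of both ratios in their group. On the log2 scale they were 0.90 and 1.11 for Gapdh and 2.30 and 2.52 for beta-actin.

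What accompanied treatment in diabetic rats was read from diabetic muscle with vanadyl sulfate against diabetic muscle without it. Myh3 was lower in treated muscle by the same 2 probe sets, 5.06-fold by X04267_at and 24.8-fold by M12098_s_at. This comparison shares its 5 untreated diabetic arrays with the preceding one, so the opposite signs are not separate evidence.

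X04267_at had 5667.5, 3668.2, 6115.7, 5938.9 and 7098.5 units in treated diabetic replicates 1 to 5, beside the untreated diabetic values of 5022.0 to 74175.2 units. The 5 treated arrays lay close together, all below untreated replicates 1 to 4, and 4 of them lay above untreated replicate 5. The mean log2 signal was 12.45 ± 0.36 in treated and 14.79 ± 1.54 in untreated diabetic muscle (SD, n = 5 each), a log2 change of -2.34 ± 0.52 (SE; limma adjusted p = 0.0471). This call stood near the threshold and held in only 4 of 20 fits with 1 array left out (log2 change from -2.96 to -1.99, adjusted p from 0.000404 to 0.188).

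M12098_s_at had 166.7, 184.8, 110.9, 390.8 and 402.3 units in treated diabetic muscle, beside 544.3 to 20489.0 units in untreated diabetic muscle. All treated arrays lay below all untreated ones, as for 2.07% of the tested probe sets. The mean log2 signal was 7.91 ± 0.76 in treated and 12.54 ± 2.05 in untreated diabetic muscle (SD, n = 5 each), a log2 change of -4.63 ± 0.73 (SE; limma adjusted p = 0.00503), and the call held with any 1 array left out. Only 2 of the 5 treated arrays lay above the 40th percentile, so the treated level is dim and the fold depends on the added constant (log2 change -4.37 with 64 added). Without diabetic replicates 1 and 3 the changes of the 2 probe sets were -1.49 (adjusted p = 0.511) and -3.56 (adjusted p = 0.131).

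The untested K03467_s_at had 102.9, 54.0, 86.7, 56.0 and 37.8 units in treated diabetic replicates 1 to 5, below all of untreated diabetic replicates 1 to 4 (727.7 to 2557.8 units), with replicate 5 at 46.4. K03468_s_at had 214.7 to 631.7 units in treated and 309.3 to 669.6 units in untreated diabetic muscle, a log2 change of -0.46 ± 0.37 (SE). L00370cds_s_at had 103.7 to 334.1 and 109.6 to 207.5 units in the same groups. Both of these overlapped between the groups.

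In all, 0 members were called higher and 2 lower, where 0.448% of the tested probe sets were called lower and 0.498% in either direction. Both called members are again probe sets of the 1 gene Myh3 and not independent readings. The 9 uncalled members had log2 changes from -1.30 to 1.04 (adjusted p from 0.182 to 0.768). Limma's unadjusted p was under 0.05 for 5 members, where 16.3% of the tested probe sets were under it. Beside the Myh3 pair they were Myh1, Myh4 and Myh6 rc_AA891522_f_at. The median change was -1.10 over the members and 0.08 over all tested probe sets. Leukocyte markers moved here too: 3 of 9 fell and 0 rose, and their summed signal was 9833.3 to 16820.1 units in treated and 18047.9 to 87308.2 units in untreated diabetic muscle. The adipocyte marker Cidea (log2 change -2.29) and the endothelial marker Esm1 (-2.08) fell as well (limma adjusted p = 0.00299 for both), 1 of 5 tested adipocyte and 1 of 4 tested endothelial markers. Changes were positive for 1 of the 5 adipocyte and 2 of the 4 endothelial markers. The part of these cell types in the lower Myh3 signal was not tested.

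**Figure D2:**
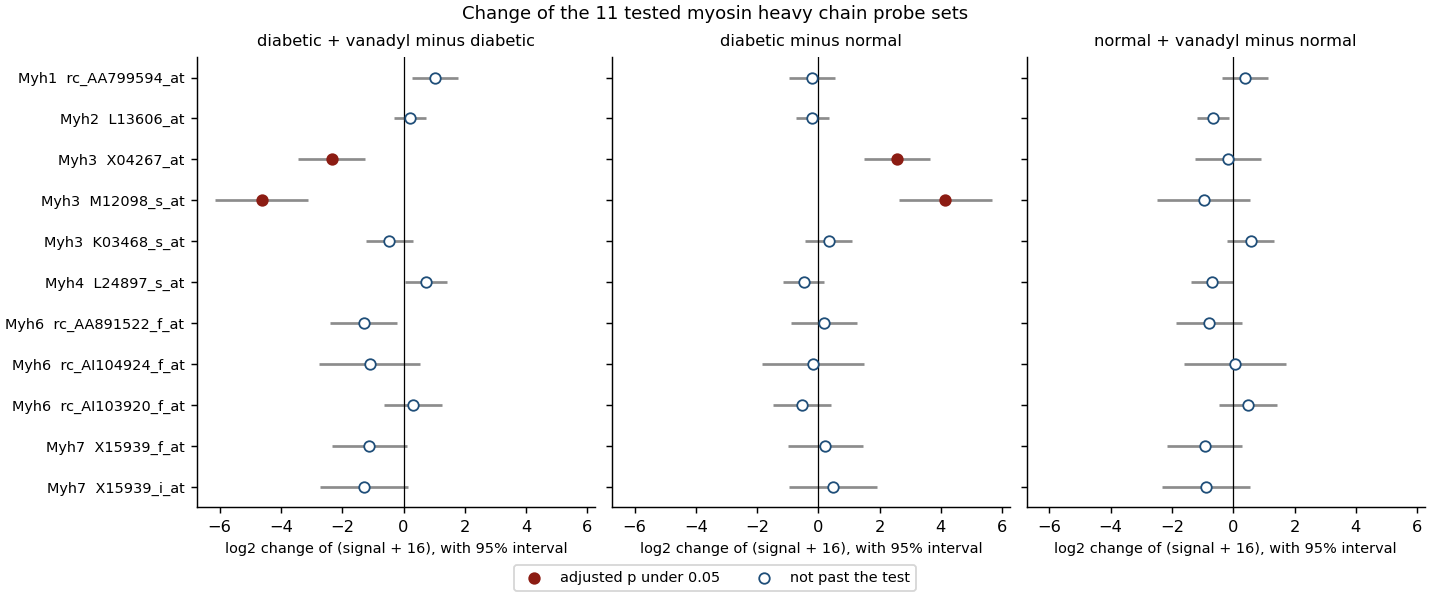
Log2 change of signal + 16 (horizontal axis) for the 11 tested myosin heavy chain probe sets in 3 comparisons, with 95% intervals; filled points passed limma's test. The 2 filled points are the Myh3 probe sets X04267_at and M12098_s_at, lower in treated than untreated diabetic muscle and higher in diabetic than normal muscle; the left and middle panels share the 5 untreated diabetic arrays.

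In the remaining comparisons Myh3 did not pass. X04267_at had 3445.1 to 5160.2 units in normal muscle with vanadyl sulfate, with a median of 4110.6, and 2695.7 to 8481.4 units in untreated normal muscle, with a median of 4286.5 (log2 change -0.17 ± 0.52, SE; 95% interval -1.26 to 0.92). M12098_s_at had 158.0, 156.5, 69.6, 385.0 and 134.4 units in treated normal muscle and a change of -0.97 ± 0.73 (95% interval -2.49 to 0.55). Treated diabetic muscle differed from untreated normal muscle by 0.23 ± 0.52 for X04267_at (95% interval -0.86 to 1.32) and -0.49 ± 0.73 for M12098_s_at (-2.01 to 1.02), intervals that leave room for sizeable differences in either direction. The interaction, the treatment change of diabetic rats less that of normal rats, was -2.17 ± 0.74 and -3.66 ± 1.03 (SE; limma adjusted p = 0.2 and 0.143). Without diabetic replicate 5, the diabetic array with the lowest signals of both, it was -2.79 and -4.52 and passed (adjusted p = 0.023 and 0.013). For each probe set this was the only 1 of 20 fits with 1 array left out that passed. Of 10 other alternatives 0 passed. Without diabetic replicates 1 and 3 the interaction was -1.32 and -2.59 (adjusted p = 0.538 and 0.4).

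By mean log2 signal, X04267_at stood in the order diabetic, treated diabetic, normal and treated normal. M12098_s_at stood in the order diabetic, normal, treated diabetic and treated normal. In both, only the untreated diabetic group differed from another group by the test, and the order of the other 3 groups lies within their spread.

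The adult fast chains Myh2, Myh1 and Myh4 passed no test in any comparison. Their levels are given here as values. The only Myh4 probe set has the suffix _s_at, so its probes match more than 1 transcript. Myh4 (L24897_s_at), the IIb chain, had 155465.5, 81635.4, 126865.4, 86585.6 and 139494.9 units in treated diabetic replicates 1 to 5, against 73950.7, 78367.2, 78137.6, 59082.7 and 55913.1 in untreated diabetic muscle. All 5 treated arrays lay above all 5 untreated ones, as 2.37% of the tested probe sets did. The log2 change was 0.74 ± 0.33 (SE; limma adjusted p = 0.267). Under quantile normalization it was 0.35. The summed signal of the 5 skeletal muscle markers, all of them fast fibre or general muscle genes, was 613026.9 to 1346720.8 units in treated and 427926.5 to 707961.0 units in untreated diabetic muscle, and 0 of the 5 passed the test.

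Myh4 had 61006.2, 60679.3, 57250.2, 64504.9 and 50784.6 units in treated normal muscle, against 62927.1, 59135.6, 275763.3, 90137.5 and 86711.8 in untreated normal muscle. Normal replicate 3 stood far above the other 19 arrays, and it is 1 of the 3 arrays with a high Gapdh ratio. The log2 change was -0.71 ± 0.33 (SE; limma adjusted p = 0.524), and -0.40 without those 3 arrays. All treated diabetic arrays also lay above all treated normal arrays (change 0.96 ± 0.33, adjusted p = 0.159), as 1.21% of the tested probe sets did. The Myh4 interaction was 1.45 ± 0.46 (SE; limma adjusted p = 0.167), and 0.58 under quantile normalization. Diabetic against normal muscle gave -0.48 ± 0.33 (adjusted p = 0.467).

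Myh1 (rc_AA799594_at), the IIx chain, had 3523.5, 1404.4, 2379.6, 3390.1 and 5123.7 units in treated diabetic muscle, against 1364.7, 1055.6, 1168.7, 1167.3 and 2773.8 in untreated diabetic muscle. Replicate 5 was the highest array of both groups, and the groups overlapped. The log2 change was 1.04 ± 0.36 (SE; 95% interval 0.29 to 1.79; limma adjusted p = 0.182). Myh1 ran from 1447.3 to 3952.7 units in treated normal muscle, with a median of 2011.3, and from 1073.1 to 2272.7 units in untreated normal muscle, with a median of 1581.1. The change in diabetic against normal muscle was -0.21 ± 0.36 (adjusted p = 0.813).

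Myh2 (L13606_at), the IIa chain, had 29403.8 to 74571.9 units in treated diabetic muscle, with a median of 42571.3, and 32460.0 to 40253.2 units in untreated diabetic muscle, with a median of 38710.2 (log2 change 0.21 ± 0.25, SE; limma adjusted p = 0.692). Treated normal muscle had 35008.0, 22204.7, 29138.3, 26475.8 and 24319.8 units, against 38182.2, 31744.7, 42840.2, 67854.5 and 42438.0 in untreated normal muscle. Only treated replicate 1 reached into the untreated range, and the change was -0.67 ± 0.25 (SE; 95% interval -1.20 to -0.14; limma adjusted p = 0.489). Diabetic against normal muscle gave -0.19 ± 0.25 (95% interval -0.72 to 0.33).

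**Figure D3:**
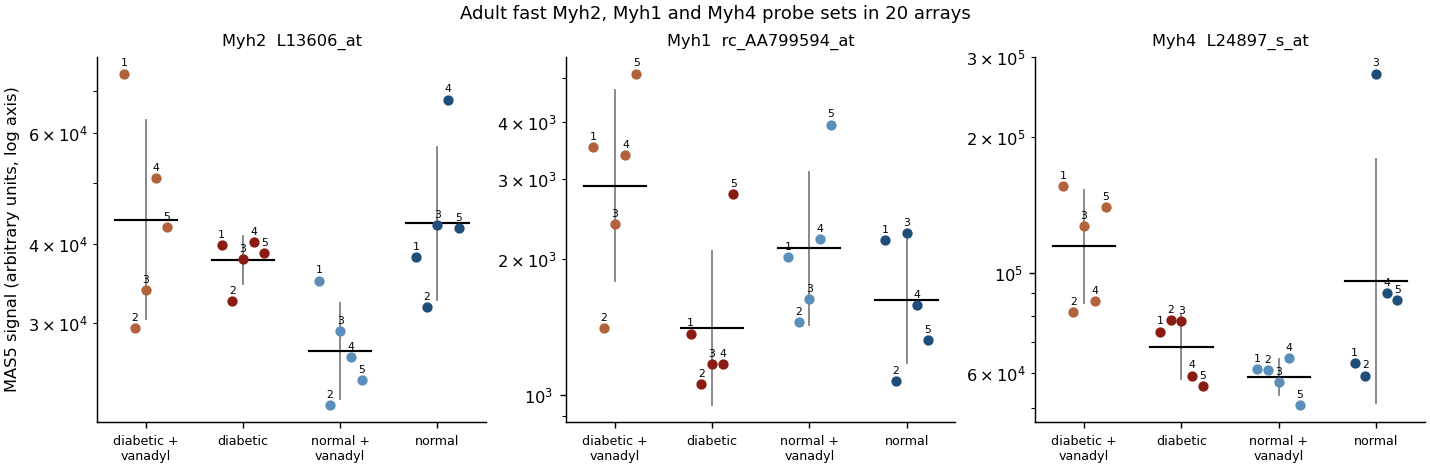
MAS5 signal (log axis, arbitrary units) of the Myh2, Myh1 and Myh4 probe sets in each array, by group, with replicate numbers; black lines are means and grey vertical bars ± SD on the log2 scale. For Myh4 the 5 treated diabetic arrays (81635.4 units and more) lie above the 5 untreated diabetic arrays (78367.2 units and less), and normal replicate 3 stands alone at 275763.3.

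Between normal muscle with and without vanadyl sulfate, limma called 0 of 11 members, where 0.0664% of the tested probe sets were called. At an unadjusted p under 0.05 there were 2, Myh2 and Myh4, where 9.23% of the tested probe sets were under it. The changes ran from -0.97 to 0.57, with a median of -0.67 over the members and 0.18 over all tested probe sets. Quantile normalization set that median of all probe sets to 0.03 and moved the members' changes by -0.34 to 0.48. Treated diabetic against normal muscle, and treated diabetic against treated normal muscle, each gave 0 called members by limma, where 0.0% of all tested probe sets were called in each. At an unadjusted p under 0.05 each had 2 members, where 12.8% and 17.9% of the tested probe sets were under it. The interaction gave 0 called members, where 0.166% of the tested probe sets were called, and 4 members at an unadjusted p under 0.05, where 13.3% of the tested probe sets were under it.

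The slow chain Myh7 varied widely between arrays of a group and passed no test either. X15939_f_at had 122441.4, 11311.9, 81538.0, 19707.2 and 14150.1 units in treated diabetic replicates 1 to 5, against 88149.1, 89786.6, 108931.2, 63101.7 and 27745.4 in untreated diabetic muscle. In the treated group replicates 1 and 3 were high, and replicates 2, 4 and 5 lay below every untreated diabetic array. The log2 change was -1.12 ± 0.59 (SE; 95% interval -2.34 to 0.10; limma adjusted p = 0.352). Treated replicate 1 is 1 of the 3 arrays with a high Gapdh ratio, and without those 3 the change was -1.60 (adjusted p = 0.212).

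The other Myh7 probe set, X15939_i_at, had 66144.8, 4990.2, 47302.2, 8849.3 and 4503.8 units in treated diabetic and 58150.6, 41357.3, 61289.5, 41242.2 and 8736.7 in untreated diabetic muscle. The same treated arrays were high and low, and the change was -1.28 ± 0.69 (SE; limma adjusted p = 0.362). Its suffix marks a probe set with fewer probes, and both carry the name of 1 sequence record, so they are not independent readings.

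Myh7 in treated normal muscle was 66698.5, 19929.5, 38414.8, 16424.6 and 32839.7 units by X15939_f_at, against 51966.7, 31643.9, 74479.1, 88709.6 and 64358.1 in untreated normal muscle. Of the 5 treated arrays, 2 lay below all untreated arrays (change -0.93 ± 0.59, SE; limma adjusted p = 0.615). Untreated diabetic muscle differed from normal muscle by 0.22 ± 0.59 and 0.47 ± 0.69 for the 2 probe sets (adjusted p = 0.89 and 0.772). By X15939_i_at, 4 of the 5 diabetic arrays lay above all normal arrays (15470.7 to 39962.0 units) and replicate 5 below them all.

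Of the 3 probe sets named for Myh6, the heart alpha chain, rc_AA891522_f_at followed Myh7 from array to array. It had 50421.5, 9792.8, 43746.0, 14517.2 and 4637.7 units in treated diabetic muscle, against 50613.4, 54255.5, 56627.7, 41052.6 and 20498.3 in untreated diabetic muscle. Treated replicates 1 and 3 were again the high pair, and the log2 change was -1.30 ± 0.52 (SE; 95% interval -2.39 to -0.21; limma adjusted p = 0.238). Without the 3 arrays of high Gapdh ratio it was -1.69 (adjusted p = 0.151). The Pearson r of rc_AA891522_f_at with X15939_f_at was 0.94 over the 20 arrays, and 0.92 with X15939_i_at. The suffix _f_at marks probes shared by members of a gene family, so signal of the neighbouring gene Myh7 cannot be told apart from that of Myh6 in it. X15939_f_at carries the same suffix, so the same limit holds for its values, given above as Myh7.

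The other Myh6 probe sets had lower correlations with Myh7, of 0.25 and 0.26 for rc_AI104924_f_at. That probe set had 637.3 to 2002.8 units in treated diabetic, 586.5 to 4424.8 in untreated diabetic, 1594.5 to 5477.2 in treated normal and 390.0 to 15378.1 in untreated normal muscle, and all groups overlapped. The other, rc_AI103920_f_at, had 486.1 to 1469.5, 400.3 to 956.6, 572.7 to 2396.4 and 319.2 to 2545.3 units in the same order of groups. Their changes were -0.53 for rc_AI103920_f_at and -0.18 for rc_AI104924_f_at in diabetic against normal muscle (adjusted p = 0.576 and 0.937). Without the 3 arrays whose Gapdh ratio was high, they were -1.08 and -1.76 (adjusted p = 0.131 and 0.0877).

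Heart markers were read because Myh6 is a heart gene. Nppb, the B-type natriuretic peptide of heart muscle, lay above the 40th percentile on 0 of 20 arrays, Nppa on 8, the heart troponin Tnni3 on 11, Tnnt2 on 17, and the atrial light chains Myl4 and Myl7 on 20. Tnnt2 and Myl4 also stand on the list of developing and regenerating muscle read below, so they do not mark heart alone. The summed signal of the 6 listed heart markers was 3198.5 to 6368.1 units in treated diabetic, 3863.1 to 12312.1 in untreated diabetic, 3761.9 to 6844.3 in treated normal and 4377.2 to 7629.1 in untreated normal muscle.

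**Figure D4:**
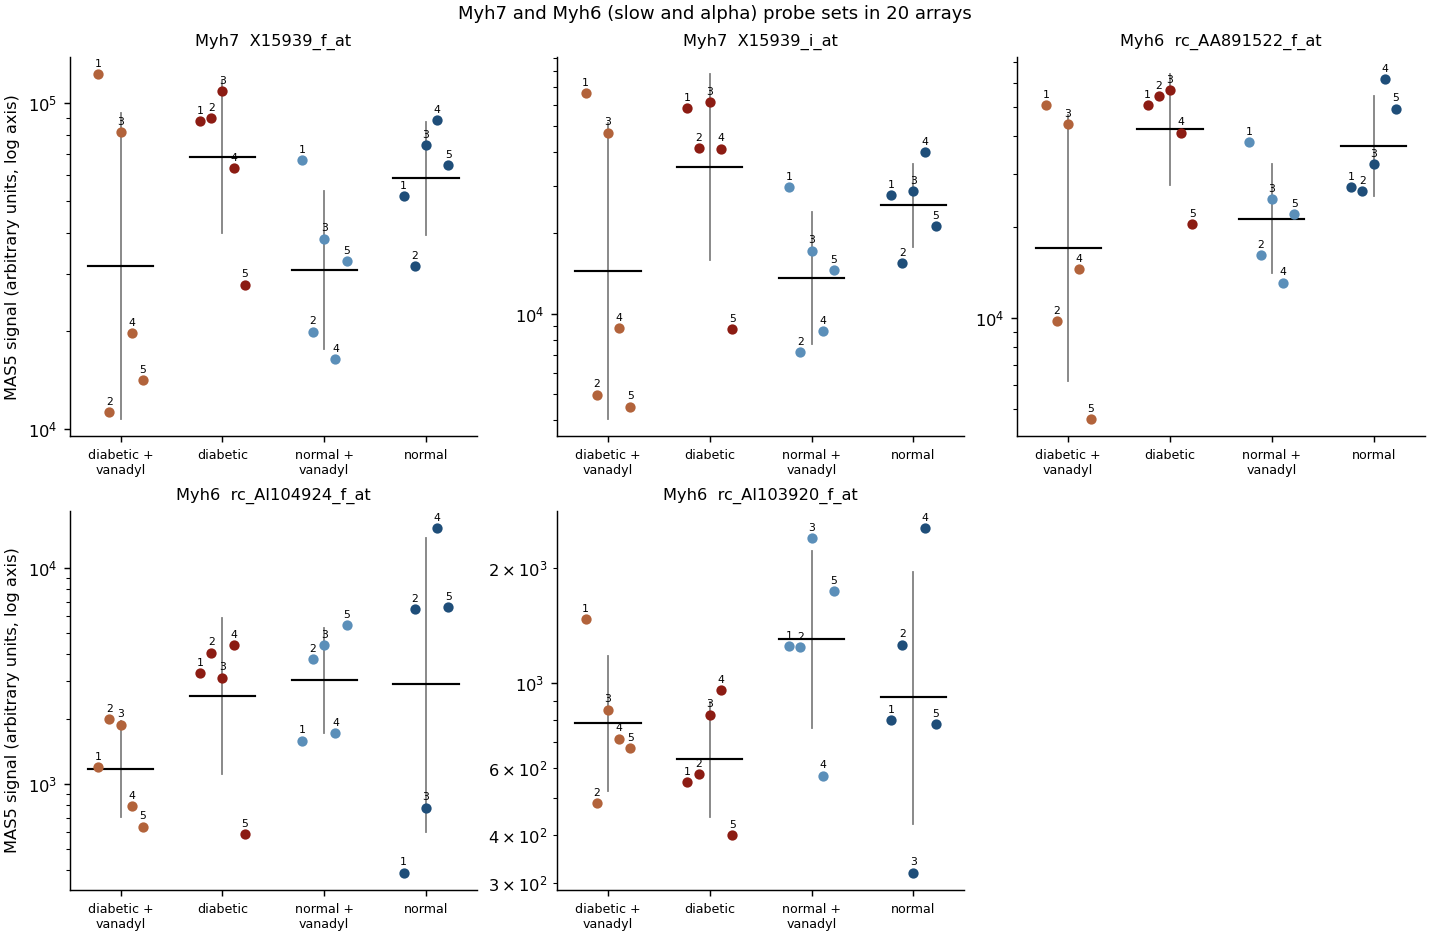
MAS5 signal (log axis, arbitrary units) of the 2 Myh7 and 3 Myh6 probe sets in each array, by group, with replicate numbers; black lines are means and grey vertical bars ± SD on the log2 scale. In the upper row treated diabetic replicates 1 and 3 are high and 2, 4 and 5 low in all 3 probe sets, and the lower row does not repeat this.

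Across the 13 members the correlation of log2 signal over the 20 arrays fell into blocks. These correlations describe 20 arrays that share scaling and group differences, and are also given after the group means were removed. Among the Myh3 probe sets, r was 0.94 between X04267_at and M12098_s_at (0.83 with group means removed), 0.92 between X04267_at and K03467_s_at (0.84) and 0.91 between M12098_s_at and K03467_s_at (0.77). X04267_at had r of 0.25 with K03468_s_at (0.34 with group means removed) and -0.33 with L00370cds_s_at (0.27), its other named Myh3 probe sets. The 2 Myh7 probe sets had r of 0.97, also with group means removed. The adult fast chains were less alike, with r of 0.52 between Myh2 and Myh4, 0.33 between Myh1 and Myh4 and 0.22 between Myh1 and Myh2. With group means removed these were 0.26, 0.23 and 0.34, so their order changed.

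**Figure D5:**
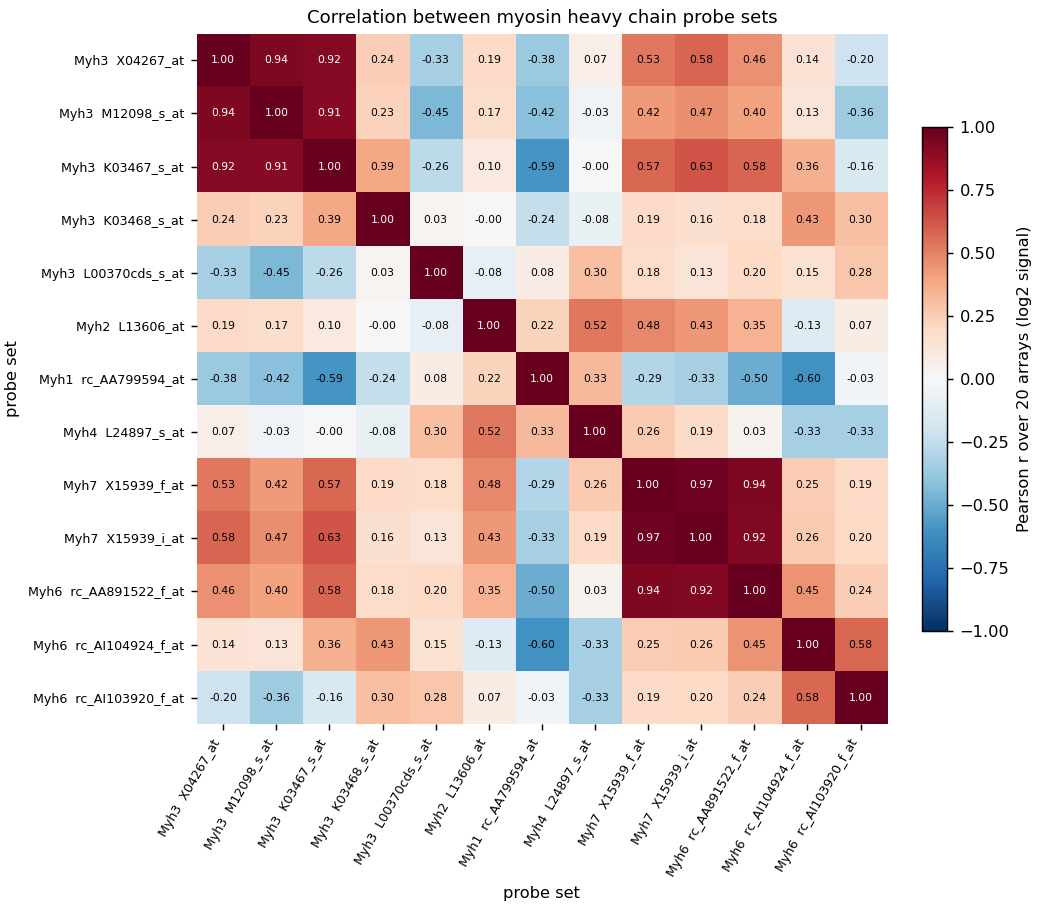
Pearson r of log2(signal + 16) over the 20 arrays between each pair of the 13 myosin heavy chain probe sets (rows and columns, colour from -1 to 1). One block holds 3 Myh3 probe sets (r of 0.91 and above) and another the 2 Myh7 probe sets with Myh6 rc_AA891522_f_at (r of 0.92 and above).

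The genes most like each member over the 20 arrays differed in kind. For Myh3 (X04267_at) they were the chemokine Ccl2 (r = 0.87), lysozyme Lyz2 (0.86) and Tnnt2, the troponin T of heart and developing muscle (0.86), and with group means removed these were 0.60, 0.60 and 0.74. For Myh7 they were the slow troponin Tnni1 (0.93), the slow light chain Myl3 (0.92) and the calcium pump Atp2a2 (0.91). For Myh6 rc_AA891522_f_at they were the slow light chain Myl2 (0.94), the Z-disc protein Actn2 (0.89) and Tnni1 (0.87).

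For Myh4 the nearest genes were COX1, a subunit of cytochrome oxidase (r = 0.98), the fast troponin Tnnc2 (0.98) and skeletal alpha-actin, Acta1 (0.97). Normal replicate 3, which stood far above the other arrays for Myh4, is included, and its part in these r values was not tested. For Myh1 the nearest genes were Nsfl1c, a cofactor of the p97 ATPase (0.89), the phospholipase Plaat3 (0.81) and the proteasome subunit Psmd1 (0.77). For Myh2 they were the transcription factor Stat5a (0.70), the Golgi protein Sys1 (0.68) and the fatty acid carrier Fabp3 (0.67), the lowest of these values. With group means removed the Myh2 values were 0.509, 0.565 and 0.446.

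Partners of the slow chain were read from a list of 11 genes, of which 7 were tested. In treated against untreated diabetic muscle the slow tropomyosin Tpm3 fell by 1.36 on the log2 scale (limma adjusted p = 0.0471), 6 did not pass, and all 7 changes were negative (median -1.70, against 0.08 over all tested probe sets). The muscle LIM protein Csrp3 had a value of -1.81 (adjusted p = 0.122). In treated against untreated normal muscle 0 of 7 passed and only 1 of 7 changes was positive (median -0.61, against 0.18 over all tested probe sets). The interaction called 0 of 7. In diabetic against normal muscle 0 of 7 passed, with Tpm3 at 1.16 (adjusted p = 0.0519), Csrp3 at 1.50 (adjusted p = 0.145) and a median of 0.33 against -0.06 over all probe sets.

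Partners of the fast chains numbered 11, of which 9 were tested, and 0 passed limma's test in any comparison. In treated against untreated diabetic muscle 7 of 9 changes were positive (median 0.68, against 0.08 over all probe sets). The calcium buffer parvalbumin, Pvalb, had 0.93 (adjusted p = 0.221) and the fast troponin Tnni2 0.72 (adjusted p = 0.248). In diabetic against normal muscle 0 of 9 were positive (median -0.45), and in treated against untreated normal muscle 0 of 9 (median -0.60). Those 2 comparisons share the 5 untreated normal arrays, so their like signs are not separate evidence. Normal replicate 3, which stood far above the other arrays for Myh4 and had a high Gapdh ratio, is among them. Its part in the medians was not tested.

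Genes of developing and regenerating muscle were read beside Myh3 from a list of 22, of which 16 were tested. In diabetic against normal muscle 1 rose, the stress-induced muscle ankyrin-repeat protein Ankrd1 (log2 change 3.62, limma adjusted p = 0.00162), 0 fell and 15 did not pass. Tnnt2 had a value of 1.89 (adjusted p = 0.138). The median change was 0.01, against -0.06 over all tested probe sets. In treated against untreated diabetic muscle Ankrd1 fell by 3.03 (adjusted p = 0.0118) and the remaining 15 missed the threshold, with the acetylcholine receptor subunit Chrnd at -1.89 (adjusted p = 0.103). The interaction called Ankrd1 as well (-3.80, adjusted p = 0.0442).

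Myh8, the perinatal chain and next neighbour of Myh4, was no member and was too dim to test. Its probe set K02111_at lay above the 40th percentile on 2 of 5 untreated diabetic arrays and 0 of the other 15. It ran from 132.5 to 247.5 units in treated diabetic, 106.9 to 361.0 in untreated diabetic, 16.7 to 315.4 in treated normal and 25.7 to 111.3 in untreated normal muscle.

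A list of 15 genes held thick filament proteins and their assembly factors together with regulators of muscle mass, and of the 5 tested 0 passed in any comparison. Mstn, the secreted inhibitor of muscle growth myostatin, had a value of -1.53 (adjusted p = 0.138) in diabetic against normal muscle. The giant protein titin, Ttn, had 1.80 (adjusted p = 0.257) and the myosin-binding protein Mybpc1 -1.53 (adjusted p = 0.299) in treated against untreated diabetic muscle.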

How the data were processed

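The deposited values are signal intensities on a linear scale, 1 per probe set and array, and per the submitters' processing notes the authors used MAS5. The sources used here give no version of it. The authors' scaling was kept. Control probe sets (59 of 8799) were left out, and tests were kept to the 6027 probe sets that exceeded the same array's 40th percentile on at least 5 of the 20 arrays. Group means of log2(signal + 16) of all 20 arrays were estimated in 1 limma fit (version 3.58.1 in R 4.3.3, functions lmFit and eBayes) with 6 two-sided contrasts, and p-values were adjusted by Benjamini-Hochberg over the 6027. Groups and replicate numbers came from the sample titles. All 13 member symbols were found unchanged through their gene identifiers.

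The members and gene lists were chosen with earlier results of these data known. Named genes are every member, up to 2 genes of smallest p per list and comparison (all called leukocyte markers are in the tables, and genes that counts single out were named after their values were seen), and the 3 genes of highest correlation with the brightest probe set of each member gene, with 1 probe set of highest mean signal per gene. No chance test was built over the members. Alternatives were other pseudocounts (1 and 64), filters, quantile normalization, the replicate number as a block, 3'/5' ratios as covariates, an intensity trend, only the groups compared, and arrays left out. The fit was tested on simulated data. Promoter sequences came from RefSeq (GRCr8), matched by symbol, and 4 genes were searched. The array's precision is limited by its 5 arrays per group.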

Additional observations from a re-analysis of the deposited data

Results flagged for a closer look

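In 52 groups of 5 arrays (13 probe sets in 4 groups), 1 array stood far from the other 4 in 5 cases, by a gap over 0.71 of the group's range on the log2 scale. Independent normal values pass this limit in about 1 in 20 groups. The 52 groups reuse the same arrays over correlated probe sets, so the count cannot be set against that rate. In untreated diabetic muscle, replicate 5 was the highest for Myh1 (2773.8 units, rc_AA799594_at) and the lowest for Myh7 (8736.7 units, X15939_i_at) and Myh6 (586.5 units, rc_AI104924_f_at). It is also the diabetic array with the lowest Myh3 signals by X04267_at, M12098_s_at and K03467_s_at, and the one with the lowest summed leukocyte signal of its group, 18047.9 units. Untreated diabetic replicate 2 was the lowest for Myh2 (32460.0 units, L13606_at), in a group that otherwise held closely together. Untreated normal replicate 3 was the highest for Myh4 (275763.3 units, L24897_s_at), and its Gapdh log2 3'/5' ratio was 2.91. The part of that ratio in the value was not tested.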

How the results depend on the processing

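Of 2035 recomputed log2 changes of members, 1937 kept their sign and side of the threshold, 33 missed it (29 of X04267_at, 4 of M12098_s_at), 3 newly passed it, and 62 changed sign, 57 of them by at most 1 SE and 5 by more. None of the 62 was a value of X04267_at or M12098_s_at in diabetic against normal or treated against untreated diabetic muscle. In diabetic against normal muscle 2 members were called; the number was 1 with only the compared groups fitted, 0 with the 3'/5' covariates, 0 without diabetic replicates 1 and 3, and 1 to 2 with 1 array left out. In treated against untreated diabetic muscle it was 2, and 1 with 1 added before the logarithm, with no filter, under quantile normalization, with the 3'/5' covariates, or after dropping the 3 arrays with a high Gapdh ratio. It was 0 without diabetic replicates 1 and 3 or with only the compared groups, and 1 to 2 with 1 array left out. In treated diabetic against normal muscle it was 0, and 1 once the 3 high-Gapdh arrays were dropped (Myh6 rc_AI104924_f_at, -2.87, adjusted p = 0.03). The interaction gave 0, and 0 to 2 with 1 array left out. The 5 sign changes by more than 1 SE, between uncalled values, all arose once those 3 arrays were dropped: K03468_s_at in diabetic against normal (-0.074), rc_AI104924_f_at (-1.52) and rc_AI103920_f_at (-0.064) in treated against untreated normal, Myh2 in treated diabetic against normal (-0.23) and rc_AI104924_f_at in the interaction (0.41). The cause was not tested. Over all tested probe sets, the 110 calls of diabetic against normal muscle became 32 with the covariates, 464 when the high-Gapdh arrays were dropped, 3 without diabetic replicates 1 and 3, and 71 with only the compared groups. For treated against untreated diabetic muscle the 30 calls became 30, 32, 1 and 11 in the same fits. With the replicate number as a block the called members stayed 2 and 2 (X04267_at adjusted p = 0.0121 and 0.0353, M12098_s_at 0.0094 and 0.00985), and no member's call changed. Over all tested probe sets, the calls of treated diabetic against treated normal muscle went from 0 to 16. Same-numbered arrays of different groups had a median r of 0.07 over 30 pairs of deviations from group means (11 above 0.1, highest 0.62). Different-numbered arrays had a median r of 0.0038 over 120 pairs (33 above 0.1, highest 0.41). The labels state no pairing, and none is claimed. Quantile normalization set the median change of all probe sets to 0.03 in treated against untreated normal muscle (0.18 as scaled by the authors), to 0.04 in treated diabetic against treated normal muscle (-0.15) and to 0.01 in the interaction (-0.13). Dim signals of M12098_s_at and K03467_s_at outside diabetic muscle limit the size of their folds.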
